A study of Mus musculus with 15 samples.

Results

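The immediate early response genes are 10 genes, Fos, Fosb, Jun, Junb, Egr1, Atf3, Ier2, Ier3, Dusp1 and Zfp36, taken by symbol from the 37620 gene identifiers of the deposited tables. All 10 were found in all 15 libraries, and all 10 passed the filter on low counts in both cohorts. They were chosen by name, with no threshold on a measured value. RNA was measured by sequencing the whole wall of the ileum, where the small intestine ends, in 15 adult mice. Every mouse carried loxP-flanked Rfx6, a gene for a transcription factor of hormone-producing cells, and every mouse had been given tamoxifen, 10 mg by gavage, 2 gavages a day, every second day over 5 days. Tissue was taken 8 days or 3 months afterwards. At 8 days there were 3 control libraries, all Rfx6f/f, and 4 libraries labelled mutant, Rfx6f/f with Vilin-CreERT2. At 3 months there were 4 control libraries, of which replicates 1 and 4 were Rfx6f/f and replicates 2 and 3 Rfx6f/+, and 4 labelled mutant of the same genotype as at 8 days. Vilin-CreERT2 is a tamoxifen-activated recombinase under Villin regulatory sequence, which works in intestinal epithelium and not in muscle, connective tissue or blood cells. The controls lacked the recombinase, so recombinase and loss of Rfx6 cannot be told apart. Replicates were numbered in deposit order, and p-values measure the spread between these animals.

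Immediate early genes are switched on within minutes of a stimulus, without new protein synthesis, when growth factor, stress or calcium signalling reaches transcription factors that already sit at their promoters. Fos and Jun family proteins pair to form the AP-1 transcription factor, Egr1 is a zinc finger activator, and Atf3 is a stress-induced factor of the same basic leucine zipper class. Dusp1, a phosphatase of MAP kinases, and Zfp36, which marks messenger RNA for decay, shut the response down again. In a dissected tissue these genes can reflect handling between death and lysis as well as signalling in the living epithelium, and the length of that interval is not given in the labels.

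The regulatory sequence of 4 members is shown because Fos varied most between libraries, Junb was the only member called between genotypes, and Dusp1 and Zfp36 were the pair whose levels went together most closely. Sequences are the bases before the RefSeq start on GRCm38.p6, read 5′ to 3′ on the gene's strand. Capitals mark matches, on either strand, to a cAMP response element (CRE, TGACGTCA), its core (TGACG, which also lies inside the CRE), a TATA box (TATAAA), a serum response element of the CArG type or a kappaB site. The full 250 bases are given for Fos (chr12:85473640-85473889, plus strand) and Junb (chr8:84978749-84978998, minus strand), neither of which holds any annotated exon base. For Dusp1 (chr17:26508583-26508640, minus strand) 58 bases from 168 to 111 before the start are given. For Zfp36 (chr7:28379267-28379296, minus strand) the 30 bases from 68 to 39 before the start are given, all of which lie in an annotated exon of another transcript model of the gene.
Fos: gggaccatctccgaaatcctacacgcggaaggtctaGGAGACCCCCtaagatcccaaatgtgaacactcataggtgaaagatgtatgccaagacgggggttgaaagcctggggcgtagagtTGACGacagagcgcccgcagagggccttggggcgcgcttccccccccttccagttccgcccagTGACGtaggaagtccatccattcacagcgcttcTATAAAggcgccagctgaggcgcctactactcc
Junb: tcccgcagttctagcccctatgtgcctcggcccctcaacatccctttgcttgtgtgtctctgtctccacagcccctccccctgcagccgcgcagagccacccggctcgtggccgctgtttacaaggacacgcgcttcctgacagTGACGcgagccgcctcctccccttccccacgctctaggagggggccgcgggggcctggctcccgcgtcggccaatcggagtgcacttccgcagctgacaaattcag
Dusp1: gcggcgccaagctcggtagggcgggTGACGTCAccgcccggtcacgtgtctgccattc
Zfp36: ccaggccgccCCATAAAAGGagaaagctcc
The Fos promoter held 2 CRE cores, at 129 to 125 and 66 to 62 bases before the start, a TATA box at 33 to 28 and a kappaB match at 214 to 205. Junb held 1 CRE core at 106 to 102. Dusp1 held a full CRE at 143 to 136, and Zfp36 a CArG box at 58 to 49. Of the 8 members with a sequence that was searched, 5 held the CRE core, against 17.8% of 32851 promoters, and 3 held a kappaB match, against 7.25%. A full CRE was found in 1 of 8 (1.55% of promoters), a CArG box in 1 (1.47%), a TATA box in 1 (12.4%) and an AP-1 site (TGAGTCA) in 0 (4.46%). A match is a run of letters and not a tested binding site.

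The gene bodies stood at chr12:85473890-85477273 for Fos, chr8:84974484-84978718 for Junb, chr17:26505590-26562128 for Dusp1 and chr7:28376784-28380253 for Zfp36 in GENCODE M21 on GRCm38. Levels below are counts per 1000000 (CPM) after TMM scaling over the 15 libraries. The libraries held 30.5 to 54.5 counts at 8 days and 26.1 to 36.3 at 3 months, in units of 1000000. The 10 genes together took 0.0300 to 0.0524% of the counts of a library. Libraries of a group differed by more than counting noise, with a chi-square per degree of freedom of 12.1 to 70.9 for pairs. Rfx6 itself stood at 1.37 to 2.10 CPM over both groups at 8 days and 1.46 to 3.34 CPM at 3 months. No decrease was seen with the mutant label, and log2 fold changes were 0.19 (SE 0.18, edgeR adjusted p = 0.867) and 0.72 (SE 0.17, adjusted p = 0.0347), so groups are named by their labels. Which part of Rfx6 lies between the loxP sites is not given in the sources used here, and reads outside it would not show a deletion. All 7 epithelial markers were above 3 counts in every library, and the ileal genes Fabp6 (556.7 to 2691.4 CPM) and Slc10a2 (195.1 to 595.9 CPM), chosen after their values were seen, were present throughout. In whole tissue, fewer cells of a type and less RNA per cell cannot be told apart.

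All 10 genes were detected in every ileum, at very different levels. Per kilobase of annotated exon, the mean over the 15 libraries was highest for Junb, at 39.5 CPM per kb, followed by Fos at 36.8 and Jun at 28.2. Ier2, a small nuclear regulator of early transcription, averaged 19.0 CPM per kb, Zfp36 17.5 and Atf3 15.2. Ier3, an early gene tied to cell survival, averaged 5.29, Dusp1 2.89, Egr1 2.19 and Fosb 0.389 CPM per kb. Junb was above Fos in only 10 of 15 libraries, Fos above Jun in 12, Ier2 above Zfp36 in 11, Zfp36 above Atf3 in 11 and Dusp1 above Egr1 in 11, so these neighbours overlapped. Jun was above Ier2, Atf3 above Ier3, Ier3 above Dusp1 and Egr1 above Fosb in 15 of 15. This order depends on the length used, the union of all annotated exons, which for Zfp36 was 1 block of 3470 bases. In CPM without length Zfp36 averaged 60.7 and Ier2 28.9, and Dusp1 averaged 9.58 and Ier3 5.98. Fosb was the rarest, with 45 to 168 counts a library.

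**Figure D1:**
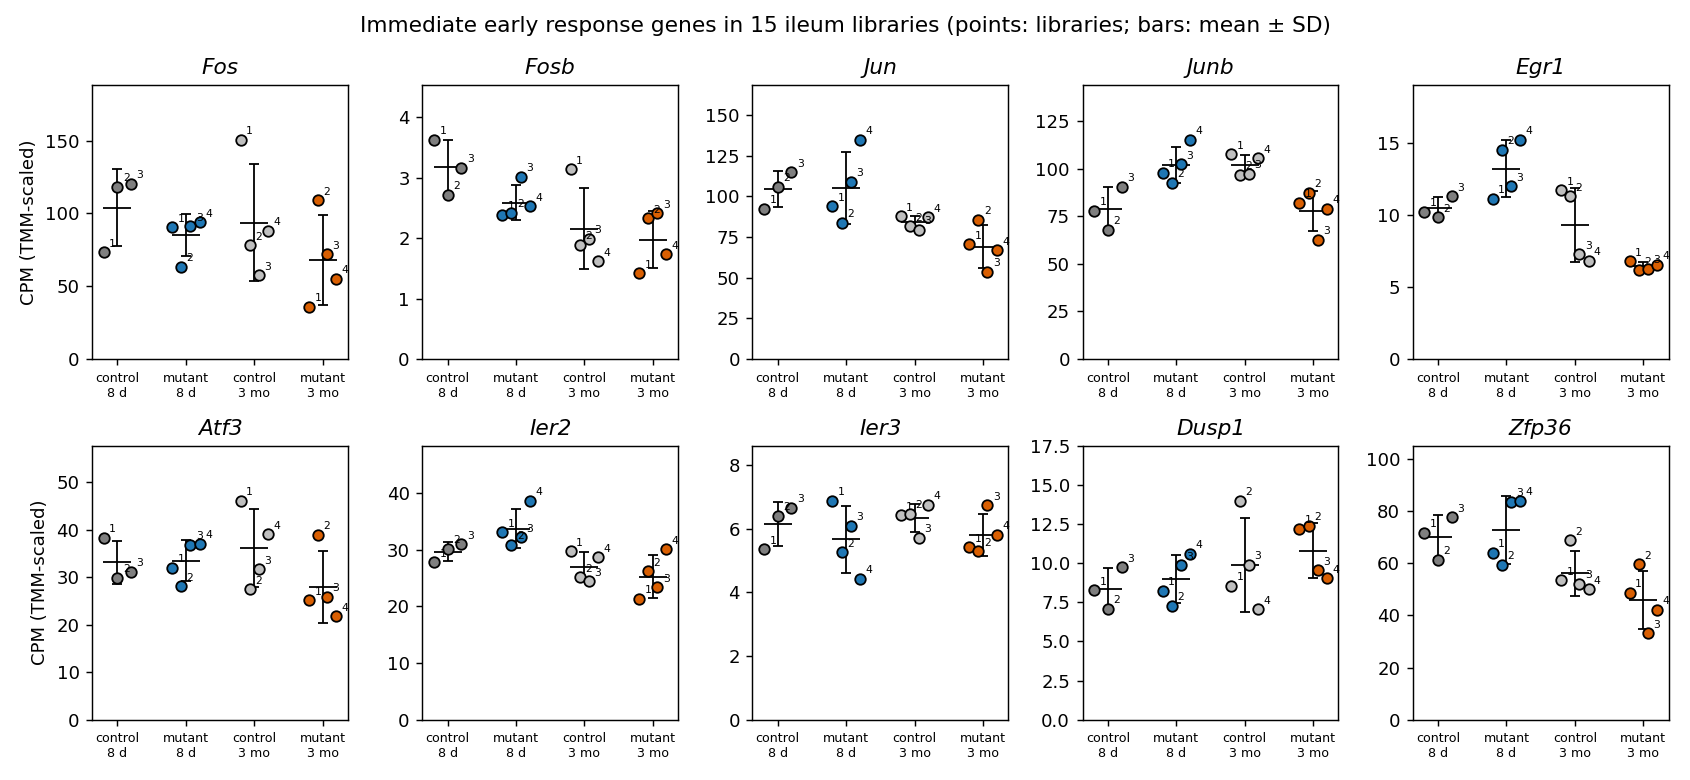
CPM (vertical axis, linear from 0, a scale of its own for each gene) of the 10 genes in the 15 libraries, with a point per library labelled by replicate number, and group mean ± SD as bars. Fos spans 35.8 to 150.6 CPM, while Junb groups at 8 days and at 3 months and Egr1 groups at 3 months do not overlap. Of tested genes, 3.98% had all libraries labelled mutant higher at 8 days and 10.6% all lower at 3 months.

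Among the Fos family, Fos varied most. In the 8-day controls Fos stood at 73.4, 118.4 and 120.4 CPM, and in the 8-day libraries labelled mutant at 90.7, 63.4, 91.3 and 94.1. In the 3-month controls it stood at 150.6, 78.1, 57.5 and 88.2 CPM, and in the 3-month libraries labelled mutant at 35.8, 109.2, 72.1 and 55.1. The groups overlapped in both cohorts, and the highest and lowest libraries of the series were both of the 3-month cohort, a control and one labelled mutant. The highest library was 4.20-fold above the lowest, and the spread within groups, an SD of 0.51 on the log2 scale, was larger than that of 97.1% of genes whose log2 CPM averaged 2 or more. The log2 fold change of the libraries labelled mutant over control was -0.30 (SE 0.19, 95% interval -0.74 to 0.14) at 8 days and -0.44 (SE 0.37, -1.28 to 0.39) at 3 months, with adjusted p = 0.751 and 0.450 from edgeR's quasi-likelihood test. At 8 days the value ranged from -0.50 without control replicate 1 to -0.18 without replicate 2 labelled mutant, and was -0.19 without control replicate 2 or 3. The 3-month value was -0.11 without control replicate 1, -0.23 without replicate 1 labelled mutant, -0.77 without replicate 2 labelled mutant and -0.80 with Rfx6f/f controls only, none of them called.

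Fosb, a close relative of Fos, stood at 3.63, 2.72 and 3.17 CPM in the 8-day controls and at 2.39, 2.42, 3.02 and 2.53 in those labelled mutant. At 3 months it stood at 3.14, 1.89, 1.99 and 1.62 in the controls and at 1.42, 2.33, 2.41 and 1.74 in those labelled mutant. The groups overlapped at both times. The 3-month library with the most Fosb was again control replicate 1, which also had the most Fos, and the library with the least was again mutant replicate 1.

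Junb, a Jun family subunit of AP-1 that can dampen Jun, was the only member called between genotypes. At 8 days it stood at 77.9, 68.0 and 90.7 CPM in the controls and at 98.0, 92.8, 102.4 and 115.3 in those labelled mutant. At 3 months it stood at 107.7, 97.0, 97.4 and 105.6 in the controls and at 82.3, 87.4, 62.7 and 79.1 in those labelled mutant. The libraries labelled mutant were thus all above the controls at 8 days, where 3.98% of 17493 tested genes had all libraries labelled mutant higher (and 3.70% all lower), and all below them at 3 months, where 10.6% of 17085 genes had this (and 8.76% the reverse). Junb fell by 0.37 on the log2 scale at 3 months (1.30-fold, SE 0.10, 95% interval -0.60 to -0.15, edgeR adjusted p = 0.0493). At 8 days the log2 fold change was 0.37 (SE 0.11, 0.12 to 0.62), with an unadjusted p of 0.00884 and an edgeR adjusted p of 0.460. The difference between the cohorts' effects was -0.76 (SE 0.16, -1.09 to -0.43, edgeR adjusted p = 0.0487).

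Both Junb calls were close to the threshold in edgeR. DESeq2 gave adjusted p = 0.00734 at 3 months and 0.00123 for the difference, and limma-voom gave 0.0488 and 0.0521. Of the settings other than left-out libraries, 6 of 8 kept the 3-month call and 5 of 7 that of the difference. Leaving out any of the 4 control replicates, or replicate 1, 3 or 4 labelled mutant, ended the 3-month call, with fold changes of -0.40 to -0.28 and adjusted p of 0.0560 to 0.121, while without replicate 2 labelled mutant it was 0.0353. Replicates 2 and 3 of the 3-month controls were Rfx6f/+, and with Rfx6f/f controls alone the 3-month change was -0.45 with adjusted p = 0.189. The difference between cohorts lost its call without any 1 of 11 of the 15 libraries (adjusted p 0.0185 to 0.101 over all 15), and kept its call without 8-day replicates 1 or 2 labelled mutant or 3-month replicates 2 or 4 labelled mutant. With Rfx6f/f controls alone it was -0.81, with adjusted p = 0.163. The summed level of T and B cell markers moved the same way, at 84.3 to 96.5 CPM in the 8-day controls, 86.5 to 335.1 in those labelled mutant, 190.6 to 324.7 in the 3-month controls and 96.8 to 220.3 in those labelled mutant. All 6 of those markers were above 3 counts in every library, 6 of 6 had a positive fold change at 8 days, with 0 called, and 6 of 6 a negative one at 3 months, with 1 called (Cd3d). The groups overlapped in that sum at both times. In other marker sums they did not. At 8 days epithelial markers stood at 12392.2 to 13433.9 CPM in the controls and 11135.0 to 12163.8 in the libraries labelled mutant, and endothelial markers at 200.1 to 207.0 and 213.8 to 230.7. At 3 months villus enterocyte markers stood at 4345.1 to 6492.9 CPM in the controls and 7964.4 to 10761.2 in the libraries labelled mutant. Endothelial markers stood at 132.5 to 142.7 and 177.4 to 245.7, and enteroendocrine markers at 135.6 to 211.2 and 316.2 to 402.0. The 6 enteroendocrine markers did not move together at 3 months, with 3 called higher and 2 called lower. The part of these cell types in the values of Junb and of the other members was not tested. Prdx2, a peroxide-reducing enzyme on the opposite strand that shares 173 exon bases (7.52% of Junb's exons), had a log2 fold change of -0.02 at 8 days and -0.10 at 3 months.

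Jun, the partner of Fos in the classical AP-1 dimer, stood at 92.5, 106.0 and 114.7 CPM in the 8-day controls and at 94.0, 83.7, 108.9 and 134.8 in those labelled mutant. At 3 months it stood at 87.8, 81.6, 79.4 and 87.2 in the controls and at 70.5, 85.6, 53.6 and 66.8 in those labelled mutant. The groups overlapped at both times, and the 3-month change of -0.27 (SE 0.12) did not pass the edgeR test (adjusted p = 0.190), with -0.39 (adjusted p = 0.0481) without replicate 2 labelled mutant and -0.16 (adjusted p = 0.315) without replicate 3 labelled mutant. Junos, an antisense gene that shares 232 bases (7.28%) with Jun's exon, stood at 0.512 to 1.75 CPM. Its log2 fold change was -0.44 (SE 0.19, edgeR adjusted p = 0.561) at 8 days and 0.38 (SE 0.25, adjusted p = 0.347) at 3 months, and it was lower in the 3-month than the 8-day controls, at -0.91 (SE 0.23, adjusted p = 0.00584). Whether the authors' counting used strand is not given in the sources used here.

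Egr1 was not called in either cohort fitted alone. Its 3-month libraries labelled mutant were all below the controls, as for 10.6% of genes, with the nearest libraries at 6.77 and 6.82 CPM. At 8 days it stood at 10.2, 9.84 and 11.3 CPM in the controls and at 11.1, 14.5, 12.0 and 15.2 in those labelled mutant. At 3 months it stood at 11.7, 11.3, 7.28 and 6.82 in the controls and at 6.77, 6.17, 6.25 and 6.54 in those labelled mutant. The 3-month libraries labelled mutant were tight, at a CV of 4.23%, and the controls fell into a high and a low pair, each with 1 Rfx6f/f and 1 Rfx6f/+ animal. The log2 fold change was 0.33 (SE 0.13, edgeR adjusted p = 0.514) at 8 days and -0.52 (SE 0.18, adjusted p = 0.105) at 3 months, and the difference was -0.86 (SE 0.24, -1.38 to -0.35, adjusted p = 0.0844). In the joint fit of both cohorts the 3-month change was called (-0.53, adjusted p = 0.0495), as was the difference with DESeq2 (-0.85, adjusted p = 0.0185) and with edgeR without 8-day replicate 1 labelled mutant (-0.94, adjusted p = 0.0490).

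Atf3 stood at 38.4, 29.9 and 31.2 CPM in the 8-day controls and at 32.0, 28.2, 36.9 and 37.1 in those labelled mutant. At 3 months it stood at 46.2, 27.5, 31.7 and 39.1 in the controls and at 25.2, 39.0, 25.9 and 21.8 in those labelled mutant. Its highest 3-month control was the replicate highest in Fos, and its highest library labelled mutant was also the one highest in Fos, with the groups overlapping throughout. Ier2 stood at 27.8, 30.2 and 31.0 CPM in the 8-day controls, with those labelled mutant at 33.1, 30.9, 32.2 and 38.7. At 3 months Ier2 stood at 29.7, 25.2, 24.5 and 28.7 in the controls and at 21.4, 26.2, 23.4 and 30.1 in those labelled mutant. Ier2 and Junb were the steadiest of the 10 within groups, with an SD of 0.16 on the log2 scale. Ier3 ranged over 4.43 to 6.88 CPM in all 15 libraries, a 1.55-fold range and the narrowest of the 10, and its groups overlapped at both times.

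Of the response's brakes, Dusp1 stood at 8.29, 7.09 and 9.73 CPM in the 8-day controls and at 8.24, 7.27, 9.88 and 10.6 in those labelled mutant. At 3 months Dusp1 stood at 8.57, 14.0, 9.89 and 7.06 in the controls and at 12.2, 12.4, 9.54 and 9.04 in those labelled mutant. It was the only member with a positive change at 3 months, at 0.14 (SE 0.21, edgeR adjusted p = 0.676), and this value moved from 0.01 without control replicate 4 to 0.35 without control replicate 2 and 0.47 with Rfx6f/f controls only. Zfp36 stood at 71.7, 61.4 and 77.7 CPM in the 8-day controls and at 64.1, 59.4, 83.6 and 84.1 in those labelled mutant. At 3 months Zfp36 stood at 53.6, 68.9, 52.2 and 50.1 in the controls and at 48.8, 59.6, 33.1 and 42.2 in those labelled mutant. Control replicate 2 was the 3-month control highest in both genes, and all their groups overlapped.

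Counted together, 0 of 10 members were called at 8 days by edgeR, where 0.0915% of tested genes were called, with 2 of 10 at an unadjusted p under 0.05, as were 8.8% of all genes. The median change of the members was 0.03, against 0.00 over all genes, and no 95% interval reached beyond -0.74 or 0.63. DESeq2 and limma-voom also called 0 members at 8 days. At 3 months 1 of 10 was called, near the share over all tested genes of 9.28%, and 2 of 10 were at an unadjusted p under 0.05, as were 29.4% of all genes. There 9 of 10 had a negative change, as did 48.8% of all genes, with a median of -0.27 against 0.01 over all genes. Leaving out control replicate 1 or replicate 1 labelled mutant made the Fosb change positive as well, at 0.13 and 0.02. Mitochondrially encoded genes took 1.74 to 1.94% of counts in the 3-month controls and 1.89 to 2.15% in those labelled mutant (at 8 days 1.65 to 1.96% and 1.55 to 1.79%), and their part was not tested. For the difference between cohorts 1 of 10 was called, against 0.785% of genes, and 8 of 10 were negative, as were 51.9% of all genes. These tests share libraries and the members share regulators, so the counts are a description.

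**Figure D2:**
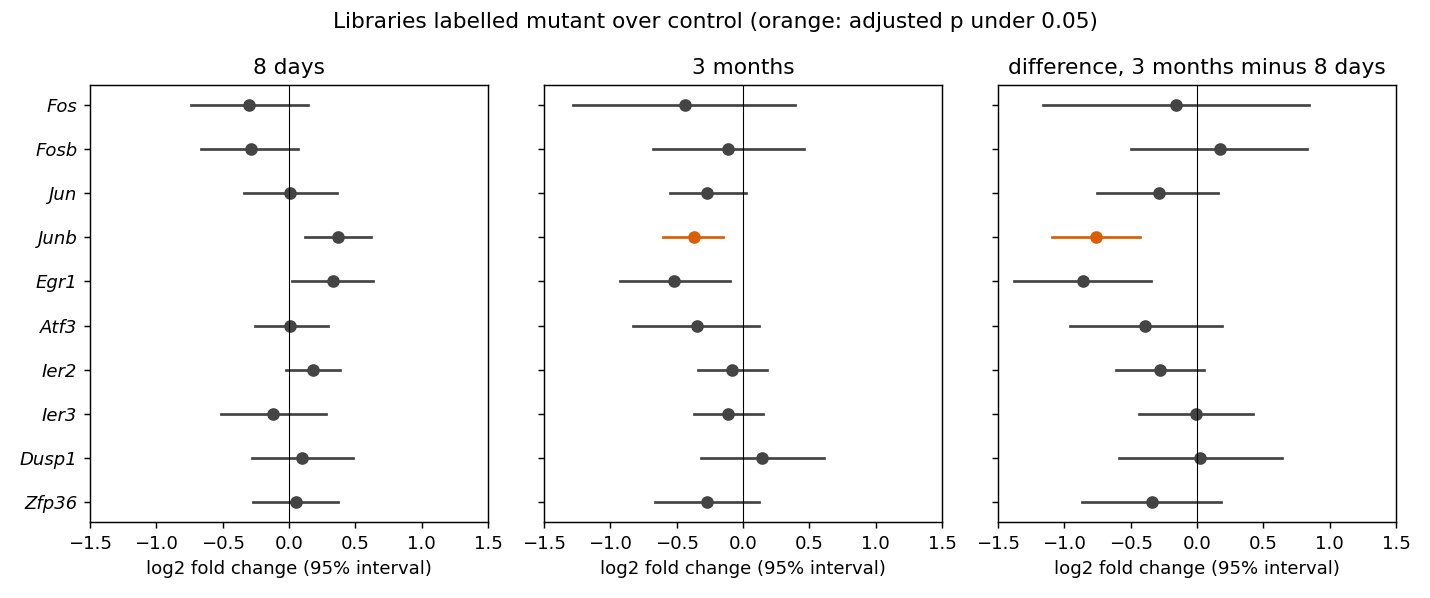
Log2 fold change of the libraries labelled mutant over control with 95% intervals (horizontal axis) for the 10 genes (vertical axis) at 8 days, at 3 months and for the difference between them, in orange where the adjusted p was under 0.05. Only Junb is orange, at 3 months (-0.37) and for the difference (-0.76) and the Fos interval at 3 months, from -1.28 to 0.39, is the widest within a cohort.

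Between the control groups, which differ in time and cohort together and of which only the 3-month group holds Rfx6f/+ animals, Junb was higher at 3 months than at 8 days, by 0.37 on the log2 scale (SE 0.11, edgeR adjusted p = 0.0169). It was the only 1 of 10 members called, where 45.1% of all tested genes were called. Without 8-day control replicate 1 it was 0.35 (adjusted p = 0.0538) and without replicate 2 it was 0.27 (adjusted p = 0.0869). Fosb was at -0.55 (SE 0.23, adjusted p = 0.0605), and was called without 3-month control replicate 1 (-0.79, adjusted p = 0.00845), without 3-month replicate 1 labelled mutant (-0.55, adjusted p = 0.0466) and by DESeq2 and limma-voom. Jun was at -0.31 (SE 0.15, adjusted p = 0.111). Fos was at -0.15 (SE 0.34, 95% interval -0.88 to 0.58). With Rfx6f/f controls only, Junb was at 0.42 (adjusted p = 0.0387) and Fos at 0.19. Time and cohort cannot be told apart.

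Within groups, the 10 genes did not rise and fall as 1 block. After centring on the 4 group means, 33 of the 45 pairs had a positive Pearson r over the 15 libraries, with a median of 0.20, and 10 pairs were above 0.5. These correlations describe libraries that share depth and scaling, and were ranked after being computed. The closest pair was Dusp1 and Zfp36 (r 0.82, rho 0.84, 0.84 without the libraries at both extremes of Dusp1, 0.97 within 8 days and 0.75 within 3 months). Jun and Junb followed (r 0.81, rho 0.83, 0.69 without those extremes of Jun, 0.69 and 0.95). Jun with Zfp36 gave 0.76 and Junb with Zfp36 0.73. All 4 of these genes were above their group means in 5 libraries: 8-day control replicate 3, 8-day replicates 3 and 4 labelled mutant, and 3-month replicates 1 and 2 labelled mutant. Of these, 3-month replicate 1 labelled mutant had the lowest Fos of the series.

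Fos had its highest r with Fosb, Atf3 and Ier2, and with Fosb and Atf3 the r was positive only within the 3-month cohort. Its r was 0.62 with Fosb (-0.31 within 8 days, 0.81 within 3 months), 0.61 with Atf3 (-0.06 and 0.77) and 0.58 with Ier2 (0.69 and 0.56). With Jun it was 0.44 (0.73 within 8 days, 0.35 within 3 months), with Zfp36 0.17 and with Dusp1 -0.03. The order changed without 3-month replicate 1 labelled mutant and 3-month control replicate 3, the libraries lowest in centred Fos. There r was 0.63 with Atf3, 0.57 with Jun, 0.53 with Fosb and 0.36 with Ier2. The sets were not separate, since Jun also had an r of 0.51 with Atf3 and 0.53 with Ier2, while its r with Dusp1 was 0.43. Ier3 was positive in only 2 of its 9 pairs. Relative to its group mean, Fos was 0.78 above in 3-month control replicate 1 and 0.80 above in replicate 2 labelled mutant, and 0.81 below in replicate 1 labelled mutant, on the log2 scale.

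**Figure D3:**
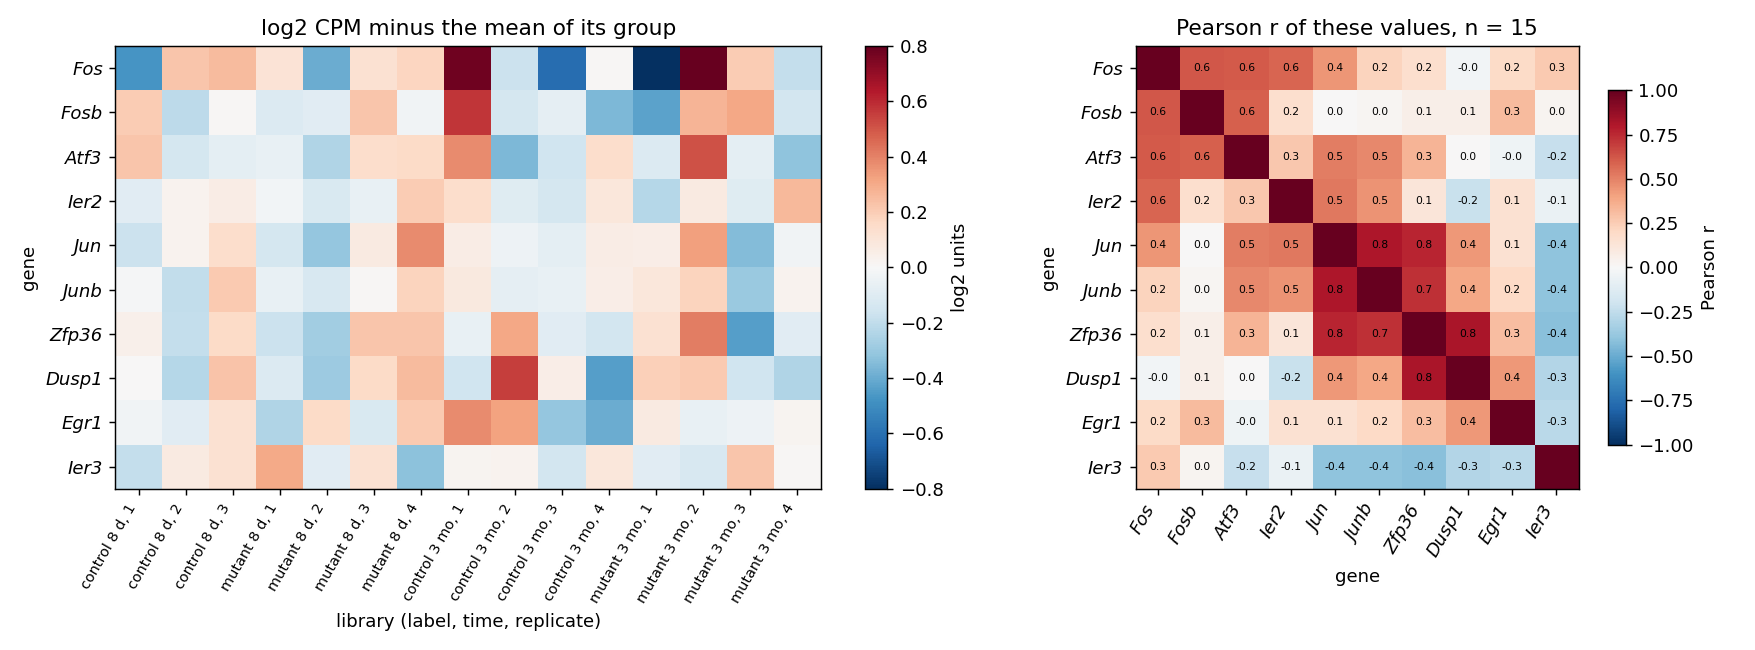
Left, log2 CPM of the 10 genes (rows) minus the mean of their group, in the 15 libraries (columns), in colour. Right, Pearson r of these values between genes, n = 15 libraries. Fos, Fosb and Atf3 form a warm block at top left, with r of 0.60 to 0.62, and Jun, Junb, Zfp36 and Dusp1 another block, with r of 0.39 to 0.82, while Ier3 is cool against most genes.

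Among the 12148 genes above that level, those whose centred levels were most like Fos were Abt1 and Hbegf, both with r 0.91. Hbegf, an EGF receptor ligand, had r 0.75 within 8 days and 0.94 within 3 months. Its r was 0.90 without 3-month replicate 1 labelled mutant and 3-month control replicate 3, the libraries lowest in centred Fos. The libraries highest in centred Fos were kept in that check. Coasy (0.85), Tmem9 (0.83), Orai1 (0.82), Ints11 (0.80), Pycard and Ndufaf2 (0.79 each), Rdh10 and Pdpn (0.78 each) came next. The members themselves are not in that ranking, and Fosb, at a mean log2 CPM of 1.27, is under its level. Placed in it by their r with Fos, Fosb would stand at 129, Atf3 at 153, Ier2 at 216 and Jun at 825, followed by Ier3 at 2465, Junb at 2979, Egr1 at 3459, Zfp36 at 3731 and Dusp1 at 6592. Hbegf ranged over 20.7 to 33.7 CPM in the 8-day controls and 17.7 to 19.9 in those labelled mutant, which did not overlap, as for 3.70% of genes in this direction, with a log2 fold change of -0.52 (SE 0.15) that did not pass the edgeR test (adjusted p = 0.460). At 3 months Hbegf ranged over 19.8 to 43.3 and 16.3 to 37.2 CPM.

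**Figure D4:**
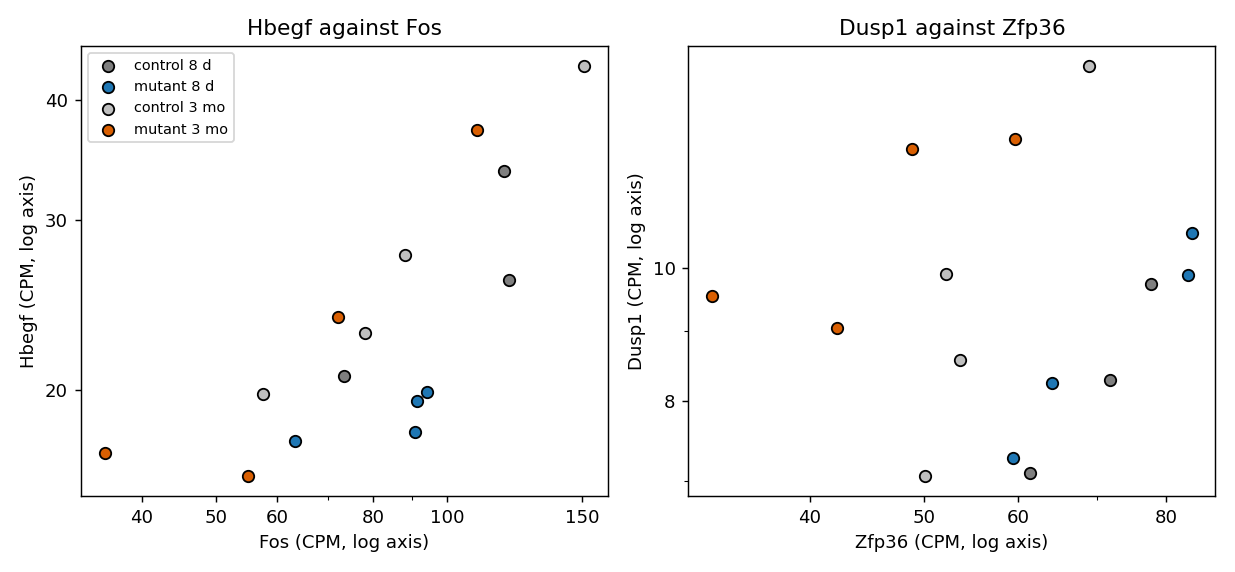
Left, Hbegf against Fos, and right, Dusp1 against Zfp36, in CPM on log axes, with a point for each of the 15 libraries in the colour of its group. Fos and Hbegf are both highest in the 3-month control at 150.6 CPM of Fos, and Dusp1 is highest, at 14.0 CPM, in the 3-month control with 68.9 CPM of Zfp36.

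Related genes were taken from 8 lists chosen by known function. At 8 days edgeR called 0 of the genes in these lists of early, growth factor, stress, glucocorticoid or clock genes. Of 93 tested genes 21 were at an unadjusted p under 0.05, where 8.8% of all genes were. They included 6 of 11 early transcription factors outside AP-1, 6 of 28 feedback and effector genes and 4 of 9 EGF pathway genes. Each other list held 0 to 2. Of those 11 factors 10 had a positive change, with a median of 0.38 against 0.00 over all genes. At 3 months 3 genes of these lists rose and 5 fell of 92 tested, a share close to the 9.28% called over all genes, so the calls named next are a description. Of 11 AP-1 and related genes 3 fell, Batf2 by 1.18, Batf by 1.08 and Jdp2 by 0.88 on the log2 scale (edgeR adjusted p 0.00982, 0.0238 and 0.0400), and 0 rose. Batf and Batf2 are AP-1 partners of immune cells. Of 11 other early transcription factors, Klf10 rose by 0.66 and Csrnp1 fell by 0.69, and of 28 feedback and effector genes Ppp1r15a, a phosphatase subunit that restores translation after stress, rose by 0.58. Hspe1 (-0.43) fell of 11 heat shock genes, Trib3 (1.14) rose of 8 unfolded protein genes, and 0 of 9 EGF pathway, 0 of 6 glucocorticoid-induced and 0 of 8 clock genes were called. For the difference between cohorts 1 of 93 tested genes of these lists was called, Csrnp1, at -1.39 (adjusted p = 0.0497), where 0.785% of all genes were called.

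Glucocorticoid-induced genes (Fkbp5, Tsc22d3, Per1, Zbtb16, Cdkn1a and Klf9) and heat shock genes also differed between libraries. In 3-month control replicate 1, highest in Fos, 0 of the 6 glucocorticoid-induced genes were above the group mean, at an average of -0.59 on the log2 scale, and 1 of 11 heat shock genes was above it, at -0.24. Control replicate 3, the control lowest in Fos, had 6 of 6 above it, at 0.73, and control replicate 4, with Fos near its group mean, had 0 of 6, at -0.68, and 1 of 11 heat shock genes above it, at -0.61. In 3-month replicate 1 labelled mutant, lowest in Fos, 6 of 6 were above the mean, at 0.73, while in replicate 2 labelled mutant, highest in Fos, 4 of 6 were, at 0.18. In replicates 3 and 4 labelled mutant 1 of 6 and 0 of 6 were, at -0.26 and -0.65. In 3-month control replicate 2, highest in Dusp1 and Zfp36 of its group, 6 of 6 glucocorticoid-induced genes (0.54) and 11 of 11 heat shock genes (0.74) were above the mean. In 8-day control replicate 3, the 8-day library highest in Fos, 10 of 11 heat shock genes were above the mean, at 0.47, while in 8-day control replicate 2, with nearly as much Fos, 4 of 11 were, at -0.28. In 8-day replicate 4 labelled mutant, where Jun, Junb, Zfp36 and Dusp1 were all high, 24 of 28 feedback and effector genes were above the group mean. The number was 16 in 8-day control replicate 3 and 17 in 8-day replicate 3 labelled mutant, where all 4 genes were also above their group means. In 3-month replicates 1 and 2 labelled mutant, the remaining such libraries, it was 10 (average -0.15) and 17 (average 0.20). The order of dissection and the time of day are not given in the labels, and their part in these values was not tested.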

How the data were processed

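Per the labels' protocols, ribosomal RNA was removed (Ribozero) from total RNA, although the labels' molecule field says polyA RNA, and RNA came from either of a pair of extraction methods that are not tied to samples. Reads were handled with bcl2fastq 2.17.1.14, Bowtie 1.0.0, TopHat2 2.0.10, Bowtie2 2.1.0 and HTSeq 0.6.1 on mm9, per the submitters' processing notes. The authors deposited raw counts of reads for each Ensembl identifier, with 1 table per cohort.

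Symbols came from GENCODE M21 on GRCm38 and covered 32897 of 37620 identifiers (87.4%). Its coordinates are not those of mm9. Promoter sequences came from RefSeq on GRCm38.p6. Of the 10 members 8 were searched there. Exon lengths are the union over all transcripts of a gene.

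Libraries of each cohort entered a separate fit in edgeR 4.0.16 under R 4.3.3, with the two-sided quasi-likelihood test in its legacy form, after filterByExpr with a minimum count of 10 and TMM scaling. A call means p under 0.05 after Benjamini-Hochberg adjustment over all genes tested. The difference between cohorts and the controls were contrasts between the 4 groups when all 15 libraries were fitted together. Log2 CPM for centring had a prior count of 2. Errors of means are SD and those of fold changes SE. The scripts were tested on simulated data. Figures were drawn with matplotlib. Alternatives were DESeq2 1.42.0, limma-voom (limma 3.58.1), other scalings and filters, a joint fit, leaving out Rfx6f/+ controls and leaving out each library.

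The members and lists were chosen with earlier results of these data known. The text names the 10 members, at most 4 genes of a list by smallest p, and the 10 genes most like Fos. Rfx6, Prdx2, Junos, Fabp6, Slc10a2, Cd3d and the glucocorticoid-induced genes, which are named only to say what that list holds, fall outside this rule.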

Additional observations from a re-analysis of the deposited data

Results flagged for a closer look

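Fos in 8-day replicate 2 labelled mutant stood at 63.4 CPM, apart from the other 3 libraries of its group at 90.7 to 94.1 CPM. The gap took 0.889 of the group's range. It was the 1 outlying value in 30 checks of groups of 4, where chance at 1 in 20 gives 1.5. The same library was below its group mean for Jun (-0.31 on the log2 scale), Dusp1 (-0.29), Zfp36 (-0.28) and Atf3 (-0.24), and above it for Egr1 (0.15).

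The effect on Junb differed between the cohorts, by -0.76 on the log2 scale in the test of the difference itself (edgeR adjusted p = 0.0487). The libraries labelled mutant were above the controls at 8 days (92.8 to 115.3 against 68.0 to 90.7 CPM), as for 3.98% of tested genes. They were below them at 3 months (62.7 to 87.4 against 97.0 to 107.7 CPM), as for 10.6%. The call of the difference was lost without any 1 of 11 of the 15 libraries. It was also lost with limma-voom (adjusted p = 0.0521) and with edgeR on Rfx6f/f controls only (adjusted p = 0.163).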

How the results depend on the processing

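Of 740 alternative values for 40 results on single members, 668 kept their direction and side of the threshold, 24 lost a call, 8 gained one and 40 changed sign. Apart from left-out libraries, the sign changed for Jun at 8 days with limma-voom (-0.01), for the Ier3 difference with DESeq2, limma-voom, RLE scaling and no filter (0.01 each), and, with Rfx6f/f controls only, between controls for Fos (from -0.15 to 0.19) and Dusp1 (from 0.24 to -0.11). Genes called at 8 days numbered 16, against 178 with DESeq2, 27 with no filter and 25 in the joint fit. At 3 months they numbered 1586, against 2983 with DESeq2 and 36 with Rfx6f/f controls only, which leaves 2 controls. For the difference they numbered 141, against 1017 with DESeq2, 41 with limma-voom, 223 with no filter, 248 with 10 counts in every library and 5 with Rfx6f/f controls only. Between controls 8093 became 5197 with Rfx6f/f controls only. Members called at 3 months went from 1 to 0 with no filter or Rfx6f/f controls only and to 2 in the joint fit, which adds Egr1. For the difference 1 became 2 with DESeq2, which adds Egr1, and 0 with limma-voom or Rfx6f/f controls only, and between controls 1 became 2 with DESeq2 or limma-voom, which add Fosb. The cause of these changes was not tested. With Rfx6f/f controls only, the fewer controls and the absence of Rfx6f/+ animals cannot be told apart. With each library left out, genes called ranged over 8 to 200 at 8 days, 391 to 1521 at 3 months and 10 to 749 for the difference, and members called over 0 to 2 at 3 months, for the difference and between controls. Log2 values that changed sign ranged over -0.13 to 0.10 for Jun, -0.05 to 0.13 for Atf3, 0.00 to 0.22 for Dusp1 and -0.04 to 0.13 for Zfp36 at 8 days, and -0.22 to 0.13 for Fosb at 3 months. For the difference they ranged over -0.49 to 0.16 for Fos, -0.11 to 0.10 for Ier3 and -0.10 to 0.27 for Dusp1, and between controls over -0.48 to 0.02 for Fos, -0.02 to 0.23 for Atf3 and -0.06 to 0.11 for Ier3. No paired analysis was possible because the labels pair no animals. Fosb, at 45 to 168 counts a library, is the member most limited by depth.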
